A study of Mus musculus with 12 samples.

Results

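The metalloproteases and their TIMP inhibitors comprised 65 of the 18193 genes measured on the arrays. They were taken by name, as every gene whose platform symbol begins with Mmp, Adam, Adamts or Timp followed by a number. This rule used no measured value, but the families were proposed with earlier results of these data known. The set held 18 Mmp, 28 Adam, 15 Adamts and 4 Timp genes. Each gene was represented by the single-symbol probe set with the highest mean log2 signal over the 12 arrays, and 30 of the 65 genes had more than 1 probe set. A RefSeq table lists 80 protein-coding genes under the same names, and 15 of these, such as Mmp15, Mmp28 and Adamts2, were not analysed here.

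The cells were TBV2, a wild-type embryonic stem cell line of mouse strain 129/SvP, so all values come from 1 line. Both groups were grown without feeder cells on gelatin, in medium that contained leukemia inhibitory factor and lacked non-essential amino acids. Control cultures received no addition, and the others received 500 µM L-proline for 5 days. Each group had 2 biological replicates of 3 arrays, lettered a to c without explanation in the labels, and the 3 arrays were averaged before any test. Control 1, control 2, proline 1 and proline 2 below are these averages. The labels do not say whether biological replicates were separate cultures, so each p-value reflects the spread of these 4 averages alone, and that spread can include technical differences.

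Matrix metalloproteinases (MMPs) are zinc enzymes that cut collagens and other matrix and surface proteins, and most are made as inactive precursors. ADAM proteins are membrane-bound relatives, and the catalytic ones release growth factors and receptor domains from the cell surface. ADAMTS enzymes are secreted relatives with thrombospondin repeats that trim proteoglycans, procollagens and microfibrils. TIMPs are small secreted proteins that block the active sites of these enzymes, each with its own preferences. In early embryos and stem cell cultures these proteins take part in matrix turnover, cell movement and the release of signalling ligands.

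The promoters of the Mmp genes were of different types, and the stretches that follow are shown because they separate a chromosome 9 run of Mmp genes from other members. In RefSeq order, Mmp13, Mmp12, Mmp1b, Mmp3, Mmp1a, Mmp10, Mmp8, Mmp27, Mmp20 and Mmp7 are 10 neighbouring genes, of which 9 were measured. Each stretch is the 100 bases before the transcription start of GRCm38.p6, read 5′ to 3′ on the gene's strand, and all sequences are from RefSeq. Capitals mark 3 motifs: TGANTCA, the motif of AP-1 (Fos and Jun proteins), on either strand; TATAAA on the gene's own strand; and GGGCGG, the GC box, on either strand, where its complement reads CCGCCC. The first 4 are from the run and the last 4 are from members elsewhere.
Mmp13 (chr9:7272414-7272513, plus strand): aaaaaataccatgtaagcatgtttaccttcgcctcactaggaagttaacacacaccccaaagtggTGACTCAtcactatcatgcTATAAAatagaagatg
Mmp3 (chr9:7445722-7445821, plus strand): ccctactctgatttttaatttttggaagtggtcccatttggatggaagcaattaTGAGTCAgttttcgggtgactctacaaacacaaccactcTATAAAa
Mmp10 (chr9:7502242-7502341, plus strand): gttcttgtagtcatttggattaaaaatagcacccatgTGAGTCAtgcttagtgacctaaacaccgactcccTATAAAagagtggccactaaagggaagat
Mmp7 (chr9:7691990-7692089, plus strand): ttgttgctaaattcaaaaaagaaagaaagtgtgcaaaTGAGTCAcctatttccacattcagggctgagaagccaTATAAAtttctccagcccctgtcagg
Mmp11 (chr10:75932503-75932602, minus strand): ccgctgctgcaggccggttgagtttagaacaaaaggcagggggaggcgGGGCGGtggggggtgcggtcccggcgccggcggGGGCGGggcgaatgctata
Mmp14 (chr14:54431498-54431597, plus strand): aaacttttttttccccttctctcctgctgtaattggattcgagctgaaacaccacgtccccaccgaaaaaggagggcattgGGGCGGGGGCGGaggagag
Timp1 (chrX:20870066-20870165, plus strand): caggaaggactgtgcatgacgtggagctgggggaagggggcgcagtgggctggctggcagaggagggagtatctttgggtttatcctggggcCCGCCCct
Timp2 (chr11:118355412-118355511, minus strand): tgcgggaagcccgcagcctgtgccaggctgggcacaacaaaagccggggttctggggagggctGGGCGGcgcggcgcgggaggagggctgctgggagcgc

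In full windows from 250 bases before to 50 bases after the start, 37 members had 42 windows. No window was found for Mmp2, Adamts15 and Adamts6, and 4 Mmp genes outside the run had one. AP-1 motifs lay in 8 of 16 Mmp windows, 3 of 16 Adam windows, 0 of 6 Adamts windows and 0 of 4 Timp windows, against 7.81% of all 32851 windows. TATAAA lay in 8 of the 16 Mmp windows, against 8.32% of all windows. GC boxes lay in 5 of 6 Adamts and 3 of 4 Timp windows but in 4 of 16 Mmp windows, against 35.7% of all windows. Windows with both an AP-1 motif and TATAAA made up 0.995% of all windows. They belonged to 8 of the 9 genes of the chromosome 9 run with a window, Mmp8 being the exception, and to 0 of the 31 windows of other members. The AP-1 motif of these 8 genes began between positions -95 and -35 from the start. Median G+C content was 42.7% in the run and 62.0% in the other members' windows. Neighbouring genes of the run arose as related copies, so their shared motifs are not independent of each other, and a match is a description of the letters only.

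**Figure D1:**
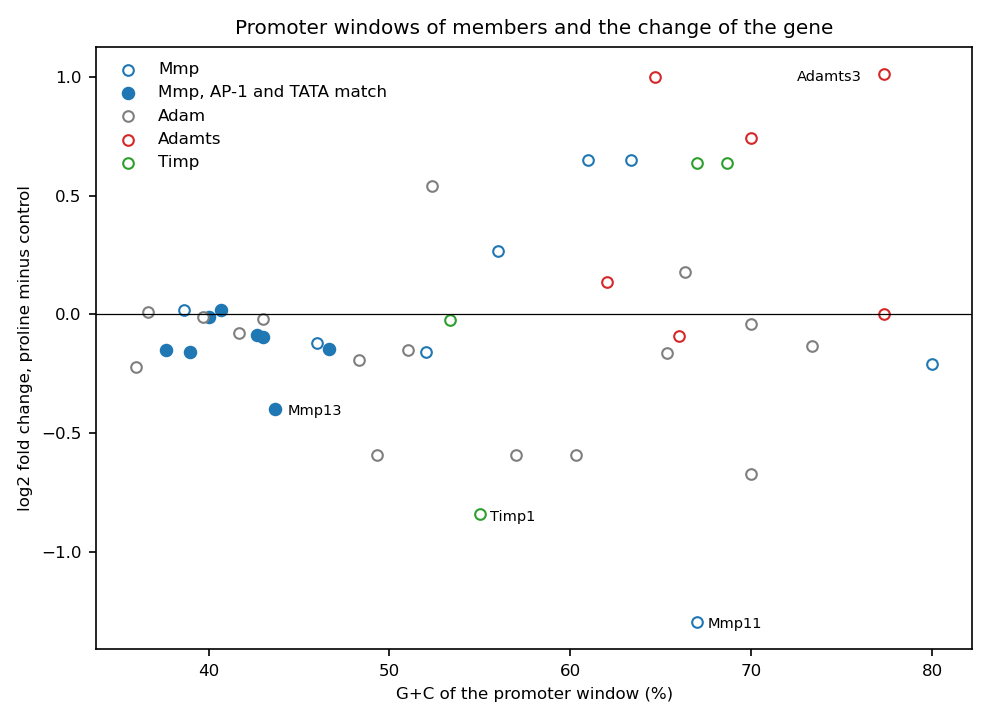
Promoter windows of the 37 members that had one, plotted by G+C content (percent, x axis) and by the gene's log2 fold change, proline minus control (y axis). Mmp2, Adamts15 and Adamts6, the members past the threshold in the test below, had no window and are absent. Each point is a window, coloured by family, and filled points hold both an AP-1 motif and TATAAA. The filled points are the 8 Mmp genes of the chromosome 9 run, which lie at low G+C and between -0.40 and 0.02 on the y axis.

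Across the 65 members, 3 rose with proline and 0 fell at an adjusted p under 0.05 in limma (Benjamini-Hochberg over all genes). The genes that rose were Adamts15, Adamts6 and Mmp2. The 3 genes are 4.62% of the members, and 4.36% of all genes passed the same test, 3.03% upward and 1.34% downward, so the share called among members was near the background. Without adjustment, 8 members were higher and 4 lower at a limma p under 0.05, or 18.5% of members against 22.1% of all genes. All 6 proline arrays lay above all 6 control arrays in 7 members and below them in 4, against 13.8% and 10.8% of all genes. The 7 were Adamts15, Adamts6, Adamts3, Adamts9, Mmp2, Mmp23 and Timp2, and the 4 were Mmp11, Adam23, Adam19 and Timp1. The median log2 fold change was -0.02 over members and -0.03 over all genes, and the median absolute log2 fold change was 0.150 and 0.182.

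Many members gave low signals. In 33 of 65 members both group means lay under the 40th percentile of all probe sets, a log2 signal of 5.36. Both group means lay above that level in 31 members (47.7%), against 68.1% of all genes. In 32 members at least 1 group mean did, and Adamts6 entered these through its proline mean alone. Of the 32, 31.25% had an unadjusted limma p under 0.05, against 28.8% of all genes so filtered. The shares past the adjusted threshold were 9.38% (3 genes) and 5.94%, and those with arrays that did not overlap 31.25% and 32.8%. Low signal cannot be separated from background with these values, and signals of different probe sets are not ordered by transcript abundance. In bulk RNA, a smaller number of cells that express a gene and less RNA per cell cannot be told apart.

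**Figure D2:**
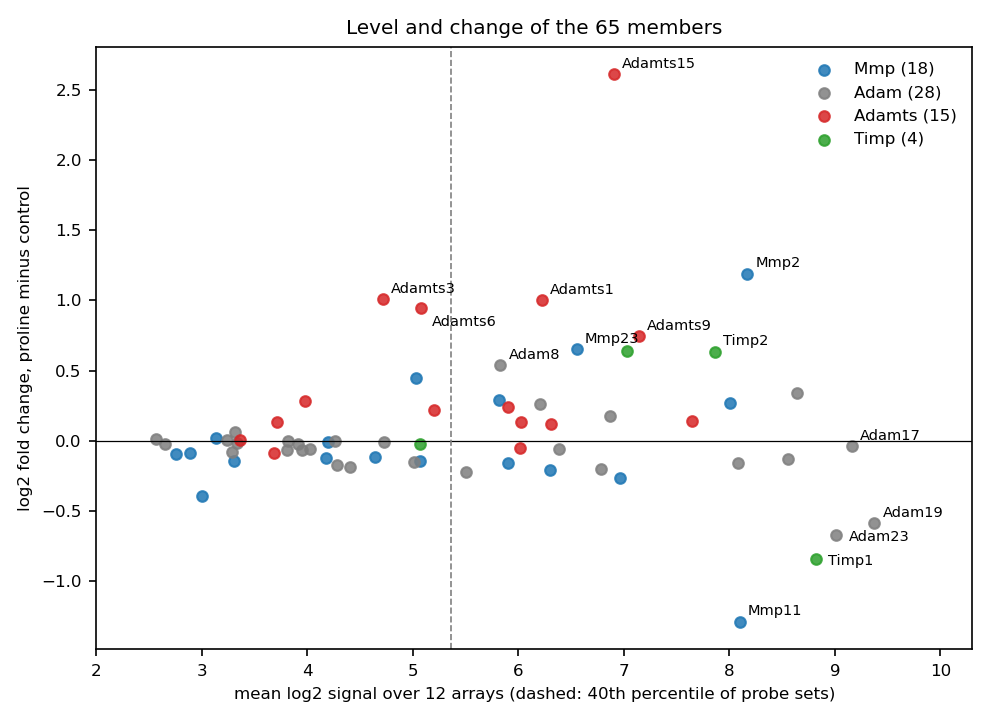
Log2 fold change, proline minus control (y axis), against the mean log2 signal over 12 arrays (x axis) for the 65 members, coloured by family. The dashed line is the 40th percentile of probe sets, 5.36, and Adamts15, Mmp2 and Mmp11 lie farthest from zero to its right.

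Of the 2 gelatinases, 1 passed the test. Mmp2 (gelatinase A), which degrades denatured collagen and type IV collagen of basement membranes, had log2 signals of 7.73 and 7.42 in control 1 and 2. After proline they were 8.71 and 8.82. All 6 proline arrays, between 8.65 and 8.96, lay above the 6 control arrays, between 7.36 and 7.73. Mmp2 thus rose 2.28-fold, a log2 fold change of 1.19 ± 0.15 (SE, adjusted p = 0.0365, n = 2 per group). A second Mmp2 probe set measured 1.22. When any 1 of the 4 biological replicates was left out, the log2 fold change stayed between 1.04 and 1.35. Mmp9 (gelatinase B), the other member of the pair, gave 5.83 and 5.52 in controls and 5.92 and 6.01 after proline, with a log2 fold change of 0.29 ± 0.15 (adjusted p = 0.368).

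Mmp11 (stromelysin-3), a secreted enzyme that furin cleaves to its active form inside the cell, had the lowest log2 fold change of all members. Its log2 signals were 8.96 and 8.52 in controls and 7.62 and 7.28 after proline. The 6 proline arrays, at 7.26 to 7.68, lay below the 6 control arrays, at 8.50 to 9.05. The log2 fold change was -1.29 ± 0.21 and missed the threshold (adjusted p = 0.0518). It passed on quantile-normalized values (adjusted p = 0.0465), with dim genes left out (0.0384) and with an intensity trend (0.0445). It did not pass with median centring (0.0522), the median over probe sets (0.0686) or every probe set by itself (0.0827). With a replicate left out the log2 fold change was -1.51 to -1.07.

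Among the membrane-bound MMPs, 0 of 4 membrane-type genes passed the test, with a median log2 fold change of 0.03. Mmp14 (MT1-MMP), the main surface activator of pro-Mmp2, gave 7.99 and 7.75 in controls and 7.92 and 8.35 after proline. Its log2 fold change was 0.27 ± 0.20 (adjusted p = 0.527), and its groups overlapped. Mmp16 (MT3-MMP) measured 0.44 ± 0.16 (adjusted p = 0.204), with 4 probe sets between 0.19 and 0.72 and both group means in the low range. Mmp17 and Mmp24 measured -0.26 ± 0.13 and -0.21 ± 0.15. Mmp23, an unusual MMP held in the membrane by its amino-terminal part until it is cleaved, gave 6.14 and 6.32 in controls and 6.78 and 6.98 after proline. Its log2 fold change of 0.65 ± 0.14 did not pass (adjusted p = 0.0845), and its second probe set measured 0.97.

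The genes of the chromosome 9 run hold the collagenases, stromelysins, matrilysin, the macrophage elastase Mmp12 and the tooth enzyme Mmp20. In 8 of the 9 measured genes both group means were under the 40th percentile, Mmp7 (matrilysin) being the exception with replicate values of 5.82 to 6.09. Log2 fold changes in the run lay between -0.40 and 0.02, and 0 passed. The most negative was Mmp13 (collagenase-3), with a signal of 3.52 in control 1 and values of 2.79 to 2.88 in the other 3 replicates. Its -0.40 ± 0.24 therefore followed control 1. Mmp1a and Mmp1b are near copies, so their probe sets may not separate them.

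**Figure D3:**
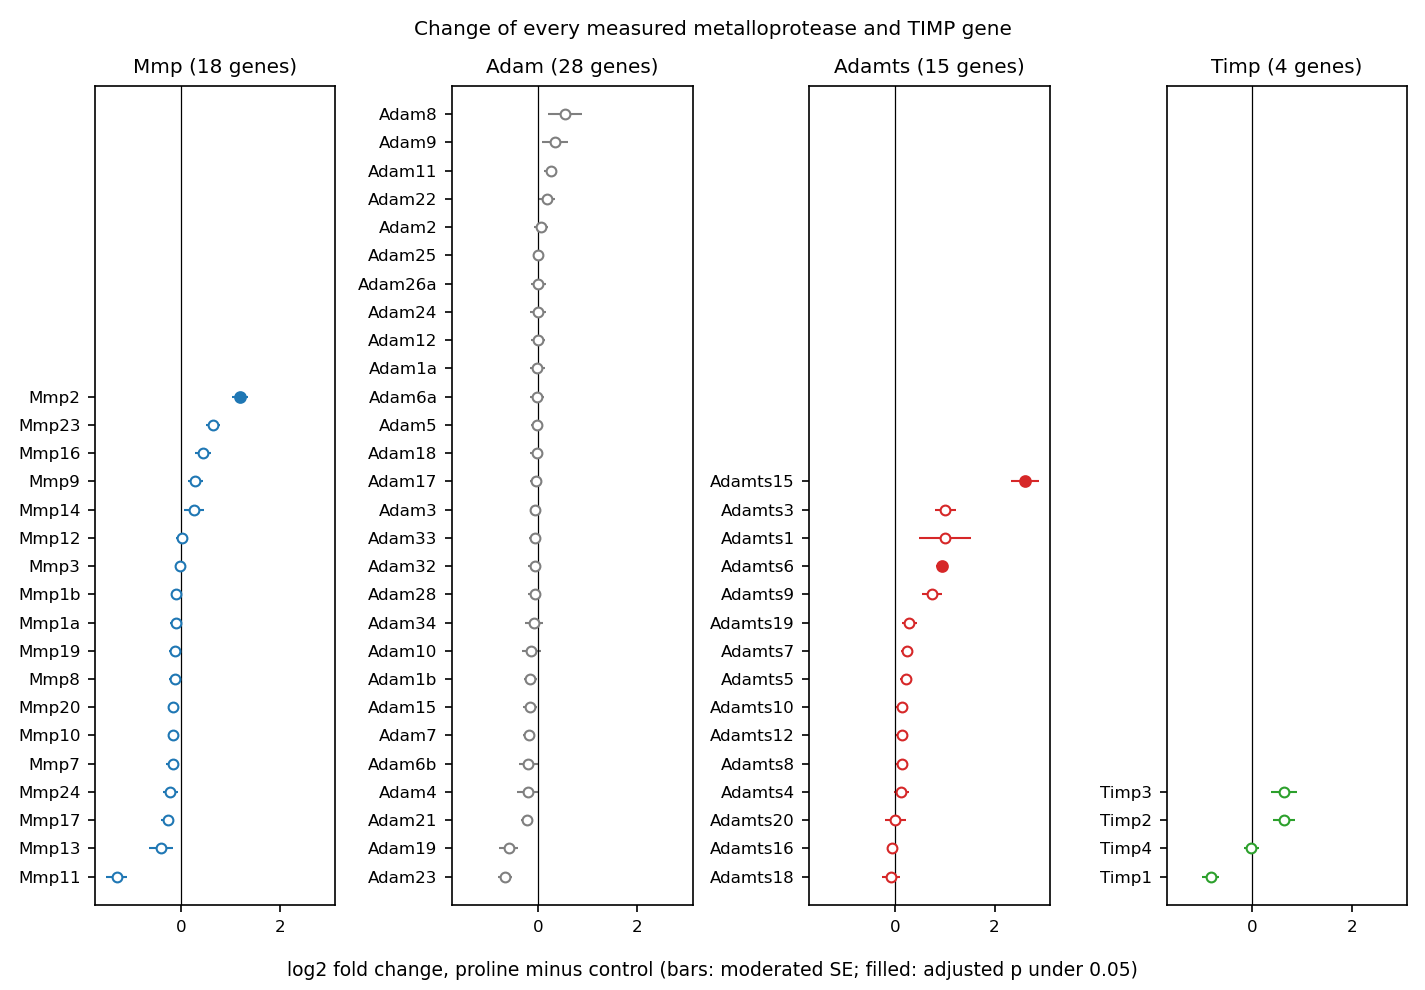
Log2 fold change, proline minus control, of each of the 65 members with limma's standard error as bars, grouped by family. Adamts15 at 2.61, Mmp2 at 1.19 and Adamts6 at 0.95 passed the test, and Mmp11 at -1.29 is the lowest.

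The ADAMTS genes held the largest fold change of the set. Adamts15, an enzyme that cuts the proteoglycans versican and aggrecan, had log2 signals of 5.27 and 5.92 in controls. After proline they were 7.999 and 8.42. All 6 control arrays lay between 5.09 and 6.12, and all 6 proline arrays between 7.97 and 8.45. Adamts15 rose 6.12-fold, a log2 fold change of 2.61 ± 0.28 (adjusted p = 0.0297, n = 2 per group), and was the sole member with at least 2-fold in each of the 4 pairings of a proline with a control replicate. It had a single probe set. With each biological replicate left out in turn the log2 fold change was 2.29 to 2.94. Adamts8, its neighbour in gene order on chromosome 9, measured 0.13 ± 0.11 (adjusted p = 0.588).

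Adamts6, an enzyme linked to fibrillin microfibrils, also rose. Its log2 signals were 4.53 and 4.68 in controls and 5.50 and 5.61 after proline. The 6 control arrays ended at 4.87 and the 6 proline arrays began at 5.43. The control mean was under the 40th percentile and the proline mean above it. The log2 fold change was 0.95 ± 0.12 (adjusted p = 0.0378), or 1.93-fold, and a second, dimmer probe set measured 1.11. With replicates left out in turn the log2 fold change was 0.87 to 1.02. The call ended when genes under the 40th percentile were left out, since Adamts6 was then not tested. It also ended under a requirement of at least 2-fold. With every probe set by itself the adjusted p of Adamts6 was 0.0624.

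None of the other 13 Adamts genes passed. Adamts3, a procollagen N-proteinase that also matures the growth factor Vegfc, gave 3.97 and 4.46 in controls and 5.33 and 5.11 after proline, with a log2 fold change of 1.01 ± 0.21 (adjusted p = 0.0771, or 0.0472 with an intensity trend). Both of its group means were in the low range and its second probe set measured -0.10, so its probe sets disagreed. Adamts9, a versican-cutting enzyme, gave 6.52 and 7.02 in controls and 7.57 and 7.46 after proline, or 0.74 ± 0.20 (adjusted p = 0.130). Adamts1, also a versican-cutting enzyme, had the widest gap between controls of the members, with 4.97 and 6.48, and gave 6.54 and 6.90 after proline. Its log2 fold change of 1.0 ± 0.52 (adjusted p = 0.365) was within that spread. Adamts5 measured 0.22 ± 0.12, but its 4 probe sets ran from -0.15 to 0.85.

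As a family, 13 of 15 Adamts genes had log2 fold changes above zero, with a median of 0.22, whereas 43.9% of all genes lay above zero. The exceptions were Adamts16 and Adamts18. Both group means were under the 40th percentile in 6 of the 15. Probe sets differed in direction for Adamts3, Adamts4, Adamts5, Adamts10 and Adamts18, so their signs depended on the probe set. On the probe sets used, the 7 proteoglycanases all lay above zero, with 1 past the test and Adamts20 at 0.003. Control replicates differed in the same sense: control 2 was above control 1 in 12 of the 15 genes, with a median difference of 0.21. The family median was 0.12 for proline 1 minus control 2, the smallest of the 4 pairings, and 0.29 for proline 2 minus control 1, the largest. The size of the family median was thus close to the difference between the control replicates.

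**Figure D4:**
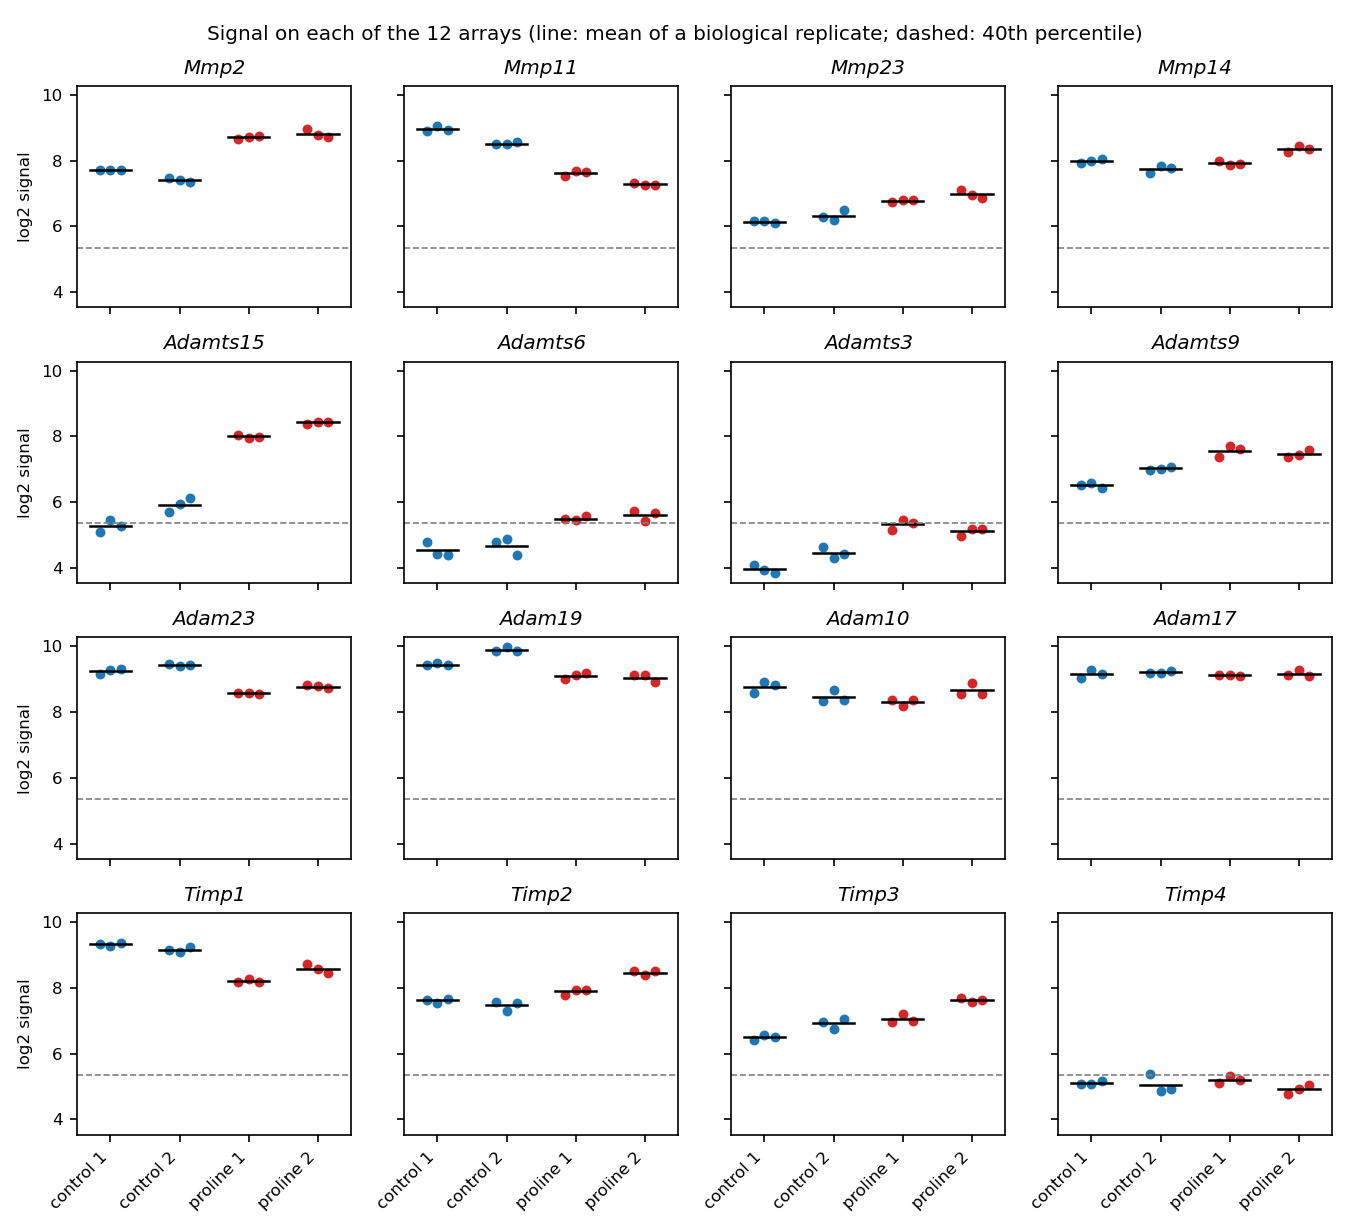
Log2 signal of each array for 16 members, with control 1, control 2, proline 1 and proline 2 on the x axis and a black line at the mean of each biological replicate. The 6 proline arrays of Adamts15, Adamts6 and Mmp2 lie above the 6 control arrays, those of Mmp11, Timp1, Adam23 and Adam19 lie below, and those of Adam10 and Adam17 overlap with the controls.

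None of the 28 Adam genes passed the test in limma, where 0 were higher and 2 lower at an unadjusted p under 0.05. These 2 are 7.14% of the family, against 22.1% of all genes. Adam17, the sheddase that releases tumour necrosis factor and several epidermal growth factor (EGF) ligands, gave 9.16 and 9.21 in controls and 9.12 and 9.17 after proline. Its difference was -0.04 ± 0.11 (adjusted p = 0.887), and other probe sets of the gene reached 0.17. Adam10, the sheddase of Notch and cadherins, gave 8.77 and 8.47 in controls and 8.31 and 8.66 after proline, or -0.13 ± 0.19 (adjusted p = 0.767). For both enzymes the direction depended on the probe set.

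In 2 Adam genes (7.14%) the arrays of the groups did not overlap, against 24.6% of all genes, and both measured below zero without passing. Both group means lay above the 40th percentile in 42.9% of Adam genes, against 68.1% of all genes. The shares given for the family thus compare genes of unlike signal. Adam23, a neural surface protein without an active enzyme site, gave 9.25 and 9.44 in controls and 8.58 and 8.78 after proline. Its log2 fold change was -0.67 ± 0.14 (adjusted p = 0.0805), and its other probe sets measured -0.36 and -0.31. Adam19 (meltrin beta), a sheddase of neuregulin, gave 9.44 and 9.89 in controls and 9.10 and 9.05 after proline, or -0.59 ± 0.18 (adjusted p = 0.162), with -0.19 in a second probe set.

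Adam9, a widely expressed sheddase, gave 8.63 and 8.31 in controls and 8.48 and 9.13 after proline (0.34 ± 0.26, adjusted p = 0.552), and the difference was 0.01 without proline 2. Adam8, an enzyme of white blood cells and osteoclasts, gave 5.57, 5.55 and 5.60 in control 1, control 2 and proline 1 and 6.59 in proline 2. Its 0.54 ± 0.34 thus came from 1 replicate. Adam15 measured -0.16 ± 0.14 with a probe set type that may cross-hybridize, and its 4 probe sets ran from -0.16 to 0.05. Adam11, a catalytically inactive neural member, measured 0.26 ± 0.13 (adjusted p = 0.341). The 16 remaining Adam genes, most of them known from testis and sperm, had a median of -0.04, and 14 of them were under the 40th percentile in both groups. The pairs Adam1a with Adam1b and Adam6a with Adam6b are near copies and their values are uncertain.

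The inhibitors did not move together. Timp1, the TIMP that inhibits most secreted MMPs but poorly the membrane-type enzymes, gave 9.32 and 9.16 in controls and 8.21 and 8.59 after proline. Its 6 proline arrays, at 8.19 to 8.74, lay below the 6 control arrays, at 9.08 to 9.37. The log2 fold change was -0.84 ± 0.17, and it did not pass (adjusted p = 0.0771).

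Timp2, which inhibits MMPs and also bridges pro-Mmp2 to Mmp14 during activation, gave 7.62 and 7.47 in controls and 7.89 and 8.47 after proline. The log2 fold change was 0.64 ± 0.22 (adjusted p = 0.201), and all 6 of its probe sets lay above zero, between 0.14 and 0.78. Without proline 2 it was 0.35. Timp3, a matrix-bound inhibitor that also blocks Adam17 and ADAMTS enzymes, gave 6.50 and 6.92 in controls and 7.06 and 7.63 after proline, or 0.64 ± 0.26 (adjusted p = 0.256). Without proline 2 it was 0.35, and without control 1 it was 0.42. Timp4 was in the low range and measured -0.02 ± 0.14 (adjusted p = 0.958). The values of Timp2 and Timp3 were highest in proline 2, as were those of Adam8, Adam9 and Mmp14.

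Of the 30 members with several probe sets, the probe sets of 19 all measured in 1 direction. Mmp2, Adamts6, Mmp23, Adam23, Adam19, Timp2 and Timp3 were among the 19. Adam10, Adam17, Adamts3 and Adamts5 were among the others.

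A list of activators, surface partners and inhibitors of MMPs outside the TIMP family had 13 measured genes. Of these, 1 rose and 0 fell, or 7.69% that passed against 4.36% of all genes. The gene that rose was an inhibitor, and none of the activators passed. Reck, a membrane-anchored glycoprotein that inhibits MMPs, gave 6.29 in both controls and 7.50 and 7.85 after proline. Its log2 fold change was 1.38 ± 0.16 (adjusted p = 0.0318). Furin, the convertase that activates Mmp11, Mmp14 and many ADAMs, measured 1.11 ± 0.24 (adjusted p = 0.0830), with 6.71 and 6.43 in controls and 7.40 and 7.97 after proline. Plat, the tissue plasminogen activator, measured 0.68 ± 0.12 (adjusted p = 0.0570) in the low range. Pcsk6, another convertase, measured -0.80 ± 0.15 (adjusted p = 0.0676). A2m, a broad protease trap, measured -1.95 ± 0.80 (adjusted p = 0.257), and its controls stood apart from each other at 9.38 and 7.01.

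None of the 9 genes for partners of Adam10 and Adam17 passed, where 4.36% of all genes did. Of the 9, 8 lay above zero, against 43.9% of all genes. Tspan5, a tetraspanin that escorts Adam10, gave 8.22 and 8.65 in controls and 9.80 and 9.49 after proline (1.21 ± 0.21, adjusted p = 0.0547). Rhbdf1 (iRhom1), which carries Adam17 to the surface, gave 8.001 and 8.94 in controls and 9.73 and 10.20 after proline (1.49 ± 0.36, adjusted p = 0.105). Among 11 EGF-family ligands and receptors, 0 passed, and the smallest p belonged to the receptors Erbb3 (1.32 ± 0.29, adjusted p = 0.0856) and Erbb2 (0.95 ± 0.22, adjusted p = 0.0915).

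Of 8 hyalectans and link proteins, the matrix partners of the proteoglycanases, 0 passed. Versican (Vcan), the main substrate of several proteoglycanases, gave 7.26 and 8.14 in controls and 8.32 and 8.02 after proline (0.47 ± 0.32, adjusted p = 0.494). The link protein gene Hapln4 measured 0.82 ± 0.21 (adjusted p = 0.118) and aggrecan (Acan) -0.50 ± 0.20 (adjusted p = 0.244). Of 7 ADAMTS-like genes, which lack the protease domain, 0 passed, with Adamtsl1 at -0.48 ± 0.12 (adjusted p = 0.116) and Adamtsl4 at -0.64 ± 0.25 (adjusted p = 0.237).

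Of 8 other metzincins, the wider clan of these enzymes, 0 rose and 1 fell, or 12.5% that passed against 4.36% of all genes. Mep1b, the subunit meprin beta of an astacin protease, gave 7.12 and 7.35 in controls and 4.55 and 5.08 after proline. Its log2 fold change was -2.42 ± 0.22 (adjusted p = 0.0259), and its proline mean was under the 40th percentile. Bmp1, the procollagen C-proteinase, measured 0.92 ± 0.35 (adjusted p = 0.227).

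**Figure D5:**
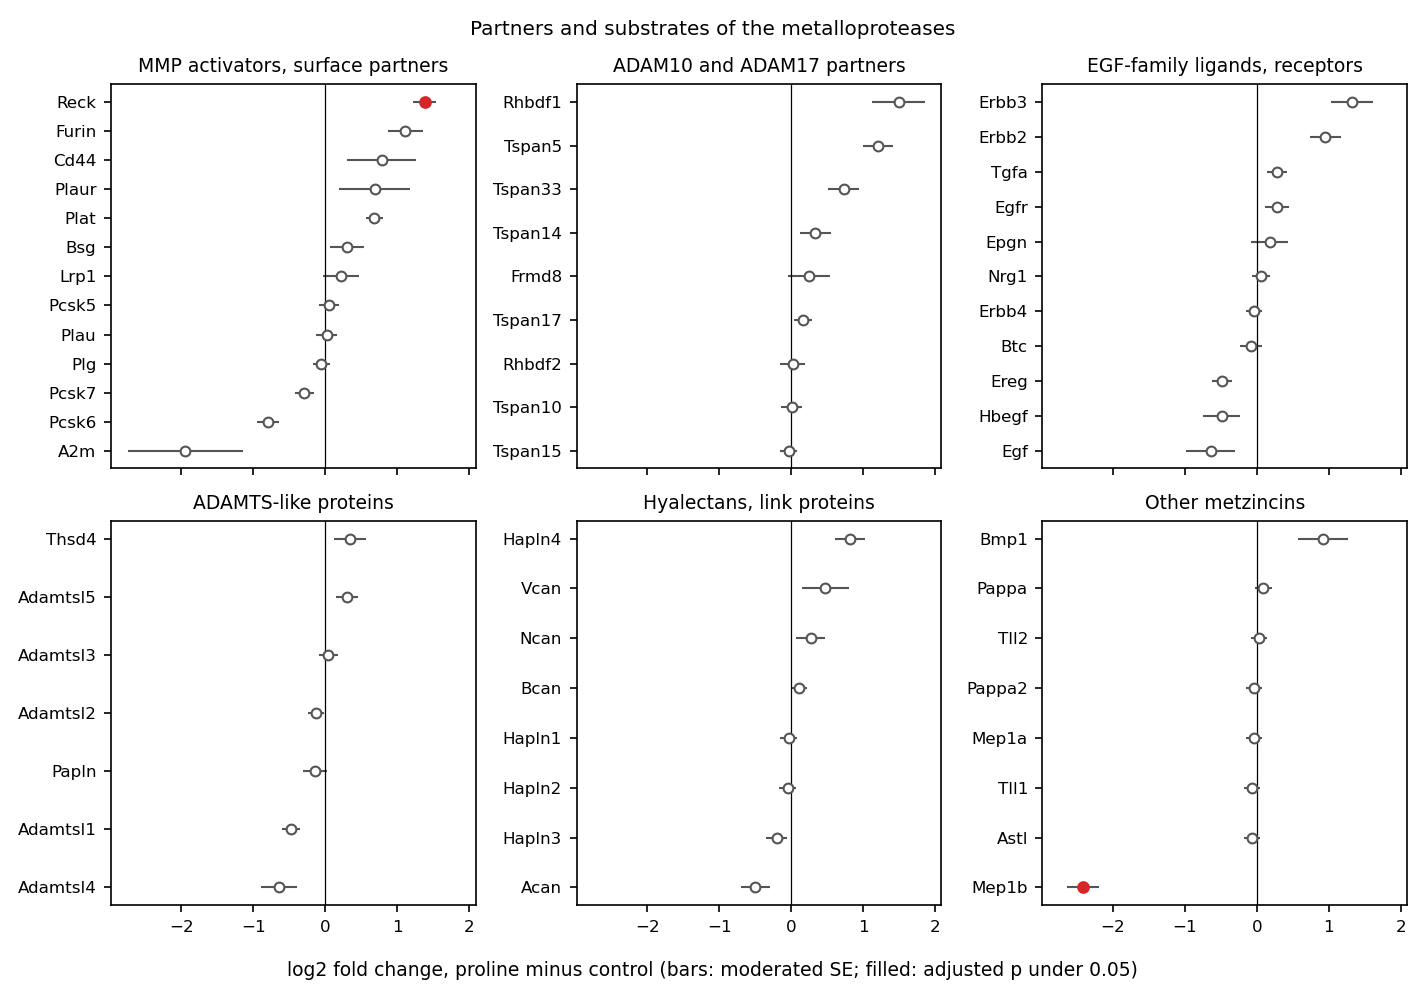
Log2 fold change, proline minus control, of the genes in 6 lists of activators, partners, ligands, substrates and relatives, with limma's standard error as bars. Reck at 1.38 and Mep1b at -2.42 passed the test.

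Markers of other cells that make metalloproteases were measured beside these results. Of 10 fibroblast markers 0 passed, where 4.36% of all genes did, and 5 were under the 40th percentile in both groups. The log2 of their summed signal was 9.80 and 9.21 in controls and 9.18 and 9.68 after proline. Decorin (Dcn) alone among them had groups that did not overlap, at 0.77 ± 0.16 (adjusted p = 0.0769), and S100a4 measured -0.68 ± 0.31 (adjusted p = 0.306). Of 12 markers of extraembryonic endoderm, Lama1 fell (-1.45 ± 0.22, adjusted p = 0.0442), or 8.33% that passed against 4.36% of all genes. Hnf4a measured -0.64 ± 0.14 (adjusted p = 0.0836), and both had proline arrays all below the controls. Dab2 measured 1.68 ± 0.28 (adjusted p = 0.0545) and Amn 0.89 ± 0.16 (adjusted p = 0.0582) in the other direction, both with proline arrays all above the controls. The log2 summed signal was 9.90 and 10.13 in controls and 10.07 and 10.25 after proline. The log2 summed signal of 8 trophoblast markers was 10.57 and 10.78 in controls and 10.12 and 10.38 after proline, whereas their mean log2 signal was 5.73 and 5.96 in controls and 5.80 and 6.11 after proline. Their smallest p-values belonged to Tfap2c (-0.69 ± 0.14, adjusted p = 0.0731) and Ascl2 (-0.59 ± 0.17, adjusted p = 0.141), while Gata3, Cdx2 and Krt7 measured 0.86, 0.65 and 0.62. The log2 summed signal of 6 macrophage markers was 8.93 and 8.76 in controls and 8.62 and 8.64 after proline. Fcgr3 measured 0.78 ± 0.14 (adjusted p = 0.0625) in the low range and Lyz2 -0.30 ± 0.11 (adjusted p = 0.228). None of these trophoblast and macrophage genes passed, and the blood cell marker Ptprc was under the 40th percentile in both groups. Of 10 embryonic stem cell markers, Zfp42 (-1.39) and Esrrb (-1.49 on the log2 scale) fell, or 20% that passed against 4.36% of all genes. Of the 10, 8 lay below zero. Proline arrays lay all below the controls in 4: Zfp42, Esrrb, Nanog (-0.54) and Dppa5a (-0.36). The mean log2 signal of the 10 was 12.51 and 12.60 in controls and 12.24 in both proline replicates. Lin28a (0.67 ± 0.11, adjusted p = 0.0530) and Dnmt3b (1.10 ± 0.27, adjusted p = 0.105) measured in the other direction, with proline arrays all above the controls.

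Technical measures also differed between replicates, and 1 of them between the groups. The beta-actin 5′ minus 3′ signal, a measure of RNA integrity, was -0.90 and -0.50 in controls and -0.66 and -0.24 after proline. The same measure for Gapdh was -0.44 and -0.15 in controls and -0.36 and -0.11 after proline. Both measures were higher in replicate 2 of each group. The 18S ribosomal RNA signal was 10.74 and 10.04 in controls and 9.74 and 8.35 after proline. Both proline values lay below both control values, with a group difference of -1.35, so this measure changed along with the treatment. The 18S signal was lowest in proline 2, where Timp2, Timp3, Adam8, Adam9 and Mmp14 were highest. The 3 members that passed were also highest in proline 2: Adamts15 (8.42 against 7.999 in proline 1), Mmp2 (8.82 against 8.71) and Adamts6 (5.61 against 5.50). A gene that is higher in both proline replicates is highest in 1 of them by necessity. Among other members above zero, Adamts3 (5.33 in proline 1 against 5.11 in proline 2), Adamts9 (7.57 against 7.46) and Mmp16 (5.42 against 5.08) were highest in proline 1. Proline 2 was above proline 1 in 35 of the 65 members and in 8162 of the 18193 genes. The collagen gene Col1a2 was also highest in proline 2, at 8.07 against 6.75 in proline 1. The part of these measures in the results was not tested.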

How the data were processed

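Per the labels' protocols, total RNA of control and proline-treated cells was converted to biotin-labelled cRNA and hybridized. The log2 signals of 45101 probe sets were deposited by the authors already normalized, with values of 2.10 to 14.8 and array medians of 5.99 to 6.03. MAS5 and RMA are named in the submitters' processing notes, with no version and no statement of which made the table.

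Names came from the platform annotation: 34945 probe sets had 1 symbol, 932 had several and were not used, and 9160 are unnamed here. The 3 arrays of a biological replicate were averaged, and limma 3.58.1 (lmFit and eBayes, R 4.3.3) tested proline against control (2 residual and 2.60 prior degrees of freedom, two-sided), adjusted over 18193 genes at a threshold of 0.05. With 2 values per group, exact permutation gives no p below 0.333, and all p-values come from limma's model. Precision is limited by the 2 biological replicates per group. The procedure was tested on simulated data.

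Genes named were every member past the threshold, the 3 of smallest p in the Mmp, Adam and Adamts families, every Timp, the 10 of highest mean signal, any member at least 2-fold apart in all 4 pairings of replicates, and list genes past the threshold or among the 2 smallest p of their list. Others are examples of their role, some chosen after their values were seen. Members and lists were chosen with earlier results of these data known. Promoter windows and gene order came from RefSeq, GRCm38.p6, and plots from matplotlib 3.10.9. Other settings tried were normalization (quantile, median centring), a filter at the 40th percentile of signal, the choice of probe set (median, or each alone), the treatment of arrays (independent, random block), a block by replicate number, a trend of variance with intensity, at least 2-fold change, and the fit without each replicate.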

Additional observations from a re-analysis of the deposited data

Results flagged for a closer look

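Within each group of 6 arrays, 36 such groups of the named genes were examined for an array far from the rest, and 2 held one. Chance gives about 1 in 20 groups. For Adam17, array b of proline 2 read 9.26, with the nearest other proline array at 9.14. For Timp2, array b of control 2 read 7.31, with the nearest other control array at 7.53.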

How the results depend on the processing

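The main limit is 2 biological replicates per group. Of the 65 members, 3 rose and 0 fell. Every probe set by itself gave 0 members higher, where 187 probe sets passed in all. Fits without 1 biological replicate left 1 value in a group and cannot decide a call. They are given as log2 fold changes only. A random block for 12 arrays gave 9 higher and 4 lower, and 12 independent arrays gave 13 and 6. These fits passed 3987 and 6804 of all genes. The replicate number as a block gave 6 higher and 2 lower, with 2039 genes passing. It brought Mmp11 (adjusted p = 0.0103), Adam23 (0.0380), Adamts3 (0.0488), Mmp23 (0.0405) and Timp3 (0.0461) past the threshold. The difference between control replicates correlated with that between proline replicates across all genes (r = 0.338) but not over the 65 members (r = -0.0084). The measures of RNA integrity were also higher in replicate 2 of each group. With 2 pairs the numbers were taken as shared labels only, and the main fit left them out. Quantile normalization, an intensity trend and the filter at the 40th percentile each gave 1 lower, Mmp11, with 3, 4 and 2 higher. A 2-fold minimum also gave 2 higher. With dim genes left out, 910 genes passed. With the median over probe sets, 351 passed and the 6 proline arrays lay below the controls in 2 members in place of 4.

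The Mmp median of -0.11 was -0.0847 after quantile normalization, 0.0551 over the 8 genes above the filter, and -0.104 to -0.0480 with replicates left out. The Adam median of -0.05 was -0.0959 above the filter, -0.0254 with medians over probe sets and -0.0681 to -0.00552 with replicates left out. The Timp median of 0.31 was 0.64 above the filter. The Adamts median was 0.16 to 0.26 with replicates left out. Signs reversed with medians over probe sets for Adam10 (0.00295), Adam17 (0.0956) and Timp4 (0.0447). With replicates left out, Adam10 ranged from -0.309 to 0.0420 and Timp4 from -0.16 to 0.12. The cause was not tested.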
